A study of Halocynthia roretzi with 24 samples.

Results

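Scaffold S964 of the ascidian *Halocynthia roretzi* carries a model of the mitochondrial gene ND5, and the 10 gene models described here are those of this scaffold that were detected in every library, out of 16078 in the table of expression values. The scaffold was chosen by its 8-cell levels, since transcripts on it stood higher in the vegetal than in the animal hemisphere at that stage. RNA was sequenced from wild type embryos of a southwestern Japanese population kept in culture, as vegetal hemispheres, animal hemispheres and whole embryos, each at 110 cells and at 8 cells. Each of these 6 groups held 4 libraries with the numbers 2 to 5, which gave 24 libraries, and all 6 groups share the wild type genotype and carry no treatment. The labels do not say how the hemispheres were separated, what a number stands for or whether libraries of a group came from separate batches of embryos, so the spread behind every p-value is that between these libraries and may be technical. Expression is given as RPKM, the reads of a model divided by its length in kilobases and by the M (mega) reads in genes, so every level is a share of its library.

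An ascidian is a tunicate, a marine relative of the vertebrates. Animal mitochondria carry a small circular genome of their own, which encodes core subunits of the respiratory chain and of ATP synthase, and in ascidians its genes lie on a single strand. Eggs receive their mitochondria from the mother, and in ascidian eggs many of them gather in the myoplasm, a cytoplasm that moves to the vegetal side after fertilisation and is inherited mainly by posterior vegetal cells, among them the founders of the tail muscle. In bulk samples, fewer mitochondria per embryo part and less RNA per mitochondrion cannot be told apart.

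In the deposited annotation the plus strand of S964 holds 11 models, from position 1033 to 14372, and the minus strand none. The 10 members run from 1033 to 13525. The genome build is not given in the sources used here. Each member has 1 transcript made of coding segments only, so no UTR is annotated and the lengths are coding lengths. From left to right the members are Harore.CG.MTP2014.S964.g07186 (S964, 1033 to 1627), Harore.CG.MTP2014.S964.g07506 (1682 to 1957), Harore.CG.MTP2014.S964.g03470 (1986 to 3080), Harore.CG.MTP2014.S964.g00042 (3391 to 3723), Harore.CG.MTP2014.S964.g04475 (3750 to 4314), Harore.CG.MTP2014.S964.g01698 (6139 to 6998), Harore.CG.MTP2014.S964.g05493 (8148 to 9578), Harore.CG.MTP2014.S964.g13713 (9609 to 10199), Harore.CG.MTP2014.S964.g12124 (10228 to 10992) and Harore.CG.MTP2014.S964.g15694 (11056 to 13525), and are given below by the last part of the name. The note of g01698 names ND5, a core subunit of respiratory complex I, the enzyme that passes electrons from NADH to ubiquinone. No other note names a gene, so the other members have no role that could be given. Of 20 gene names of animal mitochondrial genomes looked for in the notes of all models, ND5 alone was found.

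The S964 models stood apart from the rest of the annotation in the kind of match they carry. The notes of 9 of the 10 members cite a protein record as best match, 3 of them with a weak match, and g15694 has no match. Counting the 11th model, 10 of 11 S964 models (90.9%) cite a protein record, against 3.998% of all 16082 annotated models, and of 609 scaffolds with 5 models or more S964 was the 1 scaffold with a share that high. The models lie close together, with gaps of 26 to 1824 bp between neighbours (median 54 bp) and 6 of the 9 gaps under 70 bp. Animal mitochondrial genes as a rule hold no introns, but 8 of the 10 members are drawn in several segments, and 3284 of the 8981 bp they span (36.6%) are left out as gaps inside models. RPKM divides by the summed length of the segments, so a level set between members depends on how each model was drawn, while the same member can be compared between libraries without that limit.

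**Figure D1:**
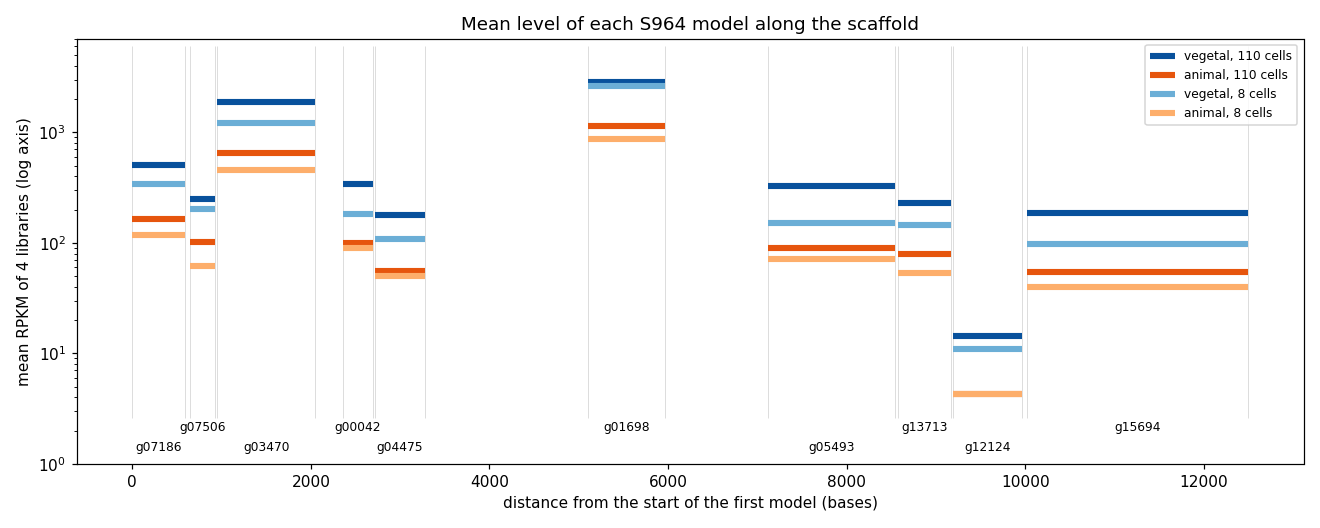
Mean RPKM of 4 libraries (log axis) for each of the 10 S964 models, drawn as a horizontal line from its start to its end, against the distance in bases from the start of the first model; colours mark the vegetal and animal hemispheres at 110 and at 8 cells. Both vegetal lines lie above both animal lines for every model, g03470 and g01698 are the highest and g12124 the lowest, and the animal lines of g12124 (4.30 RPKM at 110 cells and 4.29 at 8 cells) coincide.

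The depth per library was inferred from the steps between low RPKM values and came to about 3.15 to 9.08 M reads in genes. This recovers reads only approximately, since 57.5% to 70.5% of low values lay within 0.1 of a whole read, where 20% would by chance. Vegetal libraries had the lowest mean depth at each stage, at 4.397 ± 0.775 M against 5.61 ± 1.68 M in animal libraries at 110 cells and 4.81 ± 1.37 M against 7.52 ± 1.196 M at 8 cells (SD, n = 4 each), and the part of depth in the results was not tested. A member other than g12124 rested on about 52.1 or more reads in every library, and g12124 on about 3.9 to 41.7. All 10 members passed the filter on low values, and none was below 1.18 RPKM in any library. The 11th model, g04879 (14003 to 14372), is not a member and was listed at 0 RPKM in 20 of 24 libraries and at no more than 1.25 RPKM in the rest, below the 1.38 to 3.97 RPKM that 3 reads would give it. No marker gene of an embryonic region or tissue, of 11 names looked for, could be matched in the notes, so the labelled regions were not checked against markers.

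As a ratio of highest over lowest, the mean levels of the members spanned more than any member did between libraries. This width came from the ends of the range, with g01698 and g03470 at the top and g12124 at the bottom. The means of the members in the middle spanned less than any of these middle members did between libraries. Levels set between members also depend on how each model was drawn. Averaged over all 24 libraries, the ND5 model g01698 stood at 1878 ± 1120 RPKM (SD, n = 24) and ranked 6 among all models of the table, and g03470 stood at 1055 RPKM and ranked 11. The middle of the range held g07186 at 293 RPKM, g00042 at 178, g07506 at 161, g05493 at 150, g13713 at 127, g04475 at 97.1 and g15694 at 90.9 RPKM. The model g12124 averaged 8.77 RPKM and ranked 8347. It was the lowest member in 24 of 24 libraries, although a gap of 28 bp parts it from g13713. The ratio of g13713 over g12124 had a geometric mean of 15.1 over the 24 libraries.

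The same members held the first 2 places and the last place in every library, while the order of the others was looser. The ND5 model was the highest in 18 libraries and g03470 in the other 6, and no other member came first or second in any library. Member g03470 was above g07186 in 24 of 24 libraries, with a geometric mean ratio of 3.74. Between neighbours in the middle of the order, g00042 was above g07506 in 14 of 24 libraries, g05493 above g13713 in 13 and g04475 above g15694 in 15, so these neighbours did not keep an order across libraries. Other middle neighbours kept it more often, with g07186 above g00042 in 22 libraries, g07506 above g05493 in 18 and g13713 above g04475 in 17. In reads, g03470 took 39.1% and g01698 38.5% of what fell on the 10 models, and their joint share was 71.3% to 83.5% per library. The share of g12124 was 0.157%.

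**Figure D2:**
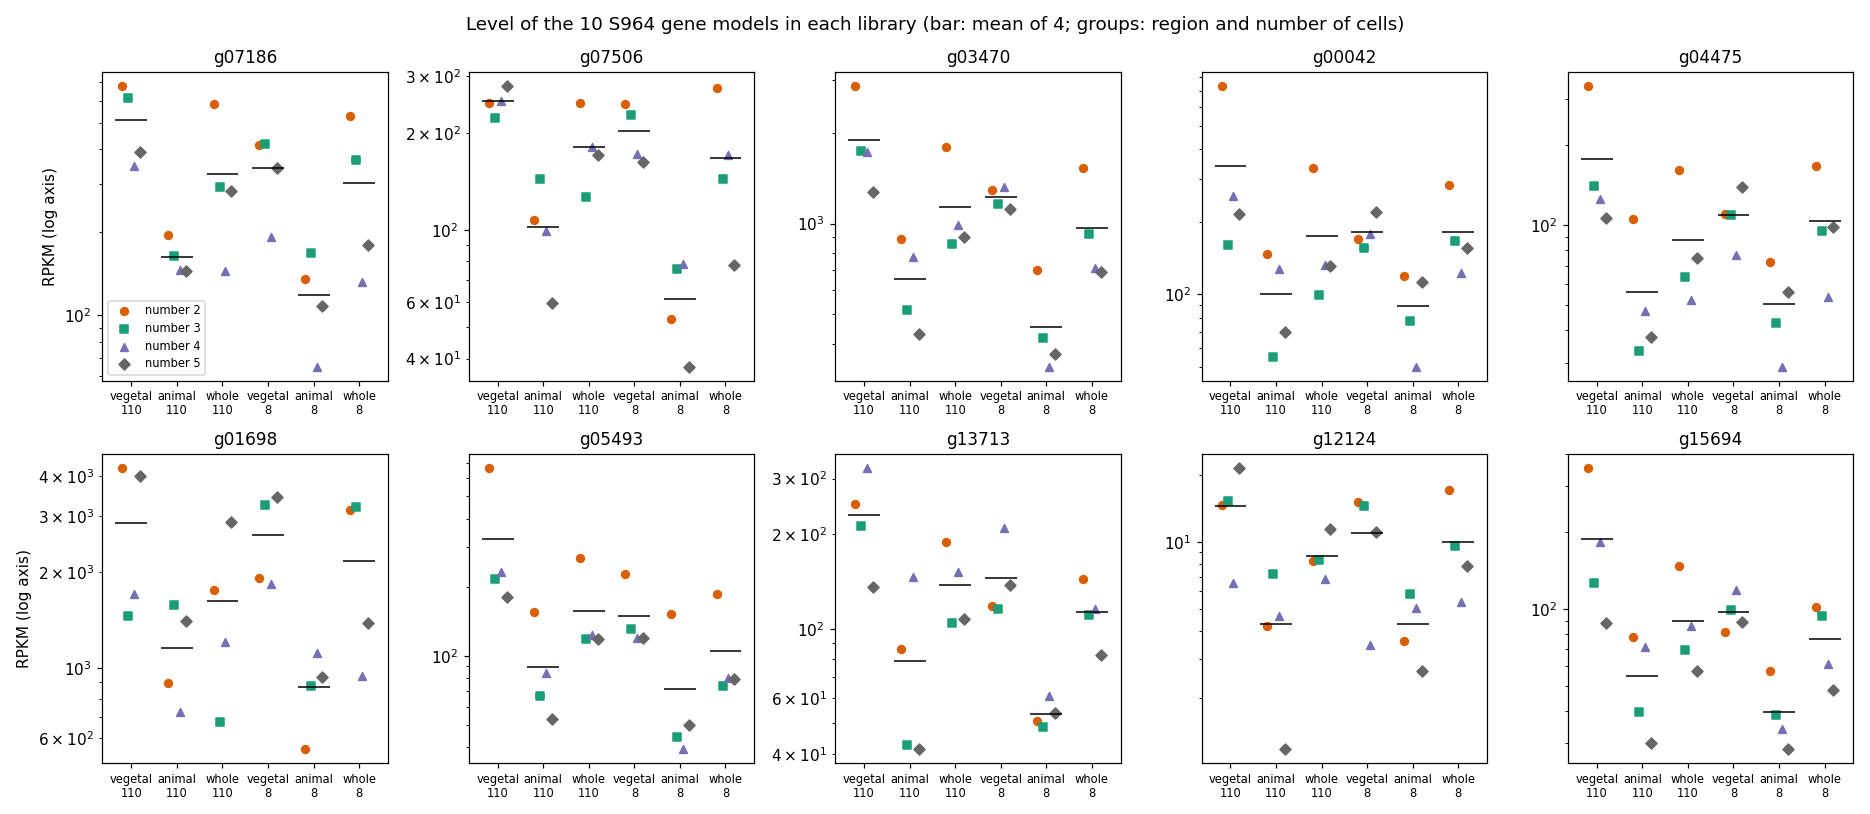
RPKM (log axis) of each S964 model in every library, 1 panel per model and 6 groups by region and number of cells along the horizontal axis, with point shapes for the numbers 2 to 5 and a bar for the mean of 4. In every panel the mean of the vegetal hemispheres at 110 cells is the highest and that of the animal hemispheres at 8 cells the lowest. The hemispheres at 8 cells are those of the contrast that led to the scaffold.

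The group means followed the same order for all members at its ends. Vegetal hemispheres at 110 cells had the highest mean of the 6 groups for 10 of 10 models, animal hemispheres at 110 cells came next to last for 10 of 10, and animal hemispheres at 8 cells came last for 10 of 10. Vegetal hemispheres at 8 cells came second for 8 of 10 models, and whole embryos of either stage ranked 2 to 4. The scaffold was chosen by its 8-cell hemispheres, so their places in this order are not independent of that choice. How many of all genes have this order was not tested. 

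At 110 cells, 9 of the 10 S964 models were called higher in the vegetal than in the animal hemisphere (5.51% of all genes tested), and the ND5 model was not among them. The libraries of this stage were not those that singled out the scaffold, though their numbers may tie them to those libraries, and that the models stood higher here was also known when they were chosen. Member g03470 had 2861, 1735, 1723 and 1275 RPKM in vegetal hemispheres of numbers 2, 3, 4 and 5, against 887, 519, 777 and 429 RPKM in animal hemispheres. The lowest vegetal library lay above the highest animal library, and number 2 was the highest in both regions. The log2 difference of vegetal over animal on the log2(RPKM + 1) scale was 1.54 ± 0.30 (SE), with a limma adjusted p = 0.000688. The ND5 model g01698 had 4243, 1453, 1704 and 4018 RPKM in vegetal hemispheres, against 894, 1571, 726 and 1406 RPKM in animal hemispheres. Its vegetal libraries fell into 2 high and 2 lower ones, the lower 2 near the top of the animal range, and in number 3 the animal library was the higher one. Its log2 difference was 1.22 ± 0.45 (SE, 95% interval 0.29 to 2.15) and did not pass the threshold of 0.05 (limma adjusted p = 0.106, and 0.0624 with the number as a block).

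The fit covered 12703 genes, of which 5.51% were called higher in vegetal hemispheres. With the number as a block the count was also 9, where 7.19% of all genes passed. The median log2 difference of the members was 1.603, with a range of 1.22 to 1.75, and that of all genes tested was -0.06. The rise of g13713 was 1.66 ± 0.32 (SE, limma adjusted p = 0.000679), that of g15694 1.67 ± 0.37 (adjusted p = 0.00284) and that of g07506 1.34 ± 0.31 (adjusted p = 0.0037). Member g05493, at 1.75 ± 0.44, had the largest difference of the 10 and a limma adjusted p = 0.0101. The other called members were g04475, g07186, g00042 and g12124, with limma adjusted p = 0.00881 to 0.0167.

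The libraries of both hemispheres did not overlap for 7 of the 10 members, where 5.86% of all genes tested had every vegetal library above every animal library. The 3 that overlapped were g01698, g13713 and g12124. For g13713, vegetal hemispheres had 249, 212, 324 and 136 RPKM against 86.4, 42.7, 146 and 41.4 RPKM in animal ones, so the vegetal library of number 5 lay below the animal library of number 4. Member g04475 was separated by the smallest gap, with a lowest vegetal library of 106.4 RPKM and a highest animal library of 105.6 RPKM. Within a number, the vegetal library was the higher one in 39 of 40 pairs of model and number, and the exception was the ND5 model in number 3, at a ratio of 0.925. The highest ratio, 18.1 in number 5, belonged to g12124 and rested on 21.4 RPKM in the vegetal and 1.18 RPKM in the animal library, which is about 3.9 reads.

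Single libraries carried part of these calls. Without number 5 of every group 4 of the 10 were called, without number 3 of every group 5, and without the vegetal 110-cell library of number 2 alone 6. Over all genes, 501 of 12349, 557 of 12434 and 637 of 12611 were called higher in these 3 settings. Leaving out that vegetal library of number 2 ended the calls of g00042, g04475 and g05493. Leaving out the animal 110-cell library of number 3 ended that of g00042, and either 110-cell hemisphere library of number 5 that of g12124. Members g03470, g13713 and g15694 passed in each of the 21 alternatives, and the ND5 model passed in the single one that left out number 3 (limma adjusted p = 0.0377). The log2 difference of the 10 members stayed positive in every alternative, and its median was 1.33 to 1.75 over them.

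**Figure D3:**
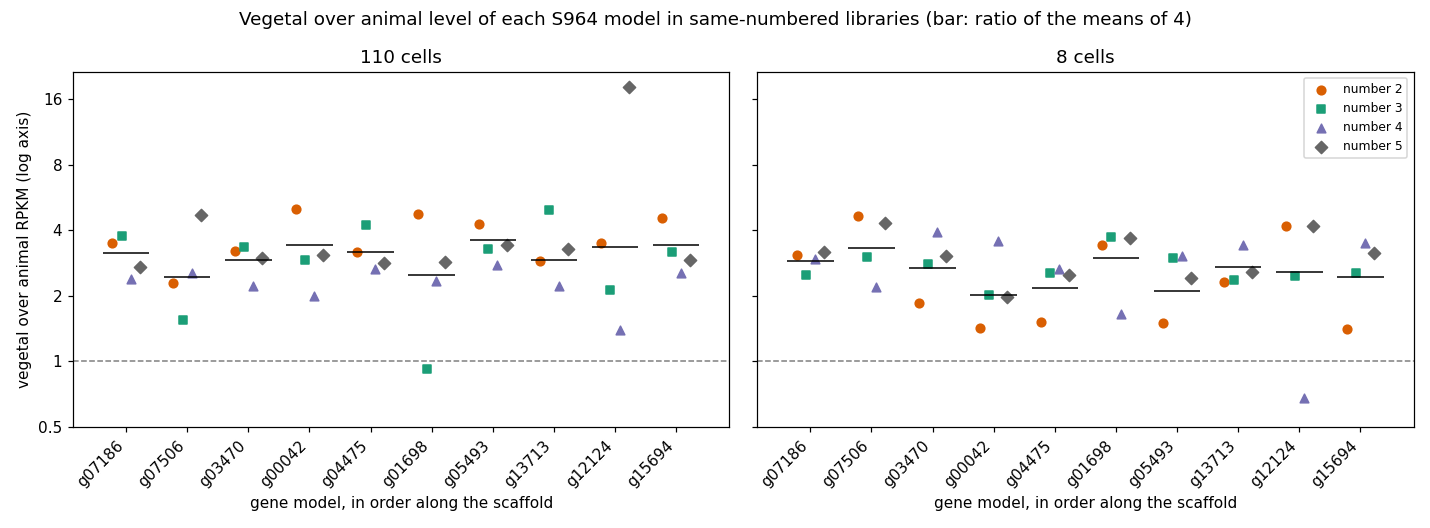
Ratio of vegetal over animal RPKM (log axis) in same-numbered libraries for each S964 model, at 110 cells in the left panel and at 8 cells in the right panel, with point shapes for the numbers 2 to 5, a bar for the ratio of the means of 4 and a dashed line at 1. At each stage 39 of 40 points lie above 1, and the exceptions are g01698 in number 3 at 110 cells (0.925) and g12124 in number 4 at 8 cells (0.681).

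At 8 cells the same models were higher in the vegetal hemisphere, which is the contrast that led to the scaffold, so its values are a description and carry no test. Member g03470 had 1297, 1162, 1320 and 1121 RPKM in vegetal hemispheres of numbers 2 to 5, against 703, 416, 335 and 368 RPKM in animal hemispheres. The ND5 model had 1909, 3254, 1834 and 3433 RPKM in vegetal hemispheres, against 555, 878, 1111 and 937 RPKM in animal hemispheres. In both models every vegetal library stood above every animal one, and this held for 8 of the 10 members (1.09% of all genes tested had such a separation). Over the members the vegetal mean was 2.02 to 3.31 times the animal mean, with a median log2 difference of 1.34, and all genes tested had a median of -0.00. The fit called 2 members at this stage, g03470 and g07506, where it called 0.118% of all genes higher, and 7 with the number as a block (0.26% of all genes higher). The choice of the scaffold rests on this contrast, so nothing is read from these counts.

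The change of the vegetal over animal difference from 8 to 110 cells subtracts the 8-cell difference by which the scaffold was chosen, so its values are not independent of that choice and its calls settle nothing about the members. The change of the log2 difference was -0.40 in g07506 to 0.54 in g00042, with a median of 0.32 over the members and 8 of 10 positive. None was called in limma, where 5.12% of all genes tested were called in either direction. An unadjusted p under 0.05 was found for 0 of the 10 and for 1281 of all 12703 genes. With the number as a block 0 were called as well, where 6.19% of all genes were. There 1 member had an unadjusted p under 0.05, as had 1816 of all 12703 genes. The intervals were wide, and for g05493 the change was 0.51, with a 95% interval of -0.79 to 1.81.

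The 10 models together took a small and region-dependent share of each library. Vegetal hemispheres at 110 cells gave them 0.644%, 0.312%, 0.327% and 0.376% of the reads in genes in numbers 2 to 5, against 0.169%, 0.149%, 0.141% and 0.129% in animal hemispheres. The 110-cell whole embryos gave 0.345%, 0.154%, 0.191% and 0.266%. The vegetal share was above the animal share in all 4 numbers, and the whole embryo lay between them in each, close to the animal value in number 3. At 8 cells the shares were 0.275%, 0.323%, 0.261% and 0.325% in vegetal hemispheres, 0.124%, 0.104%, 0.102% and 0.1003% in animal hemispheres and 0.368%, 0.290%, 0.144% and 0.164% in whole embryos. The whole embryo of number 2 was above both hemispheres there, and the other 3 lay between them.

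**Figure D4:**
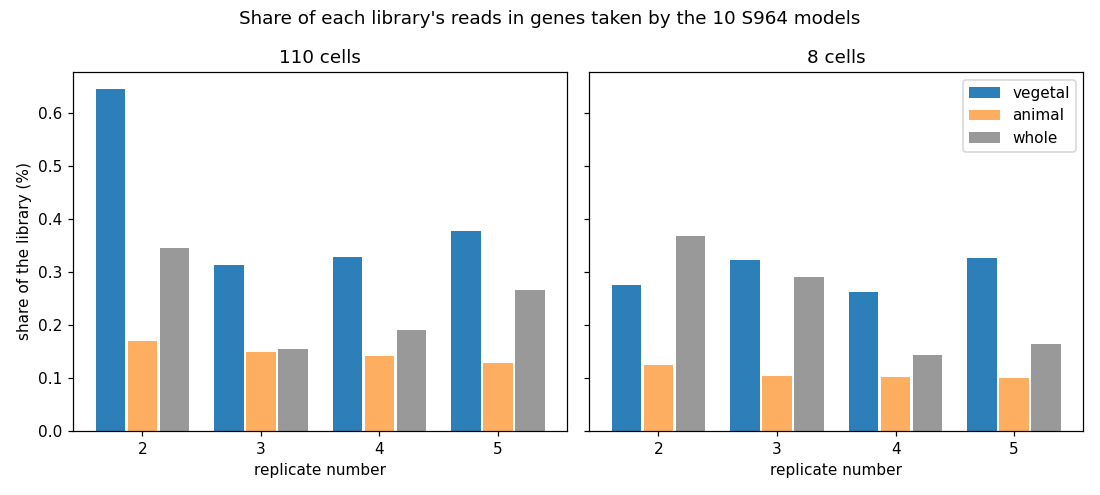
Share of the reads in genes (%) that fell on the 10 S964 models in each library, as bars by number, for vegetal hemispheres, animal hemispheres and whole embryos at 110 cells in the left panel and at 8 cells in the right panel. The vegetal bar exceeds the animal bar in every number, and the whole embryo bar lies between them except in number 2 at 8 cells, where it reaches 0.368%.

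Model by model, whole embryos at 110 cells lay between the hemispheres of the same number in 36 of 40 cases, above both in 1 and below both in 3. Against whole embryos the vegetal hemispheres had a median log2 difference of 0.80 over the members (range 0.50 to 0.99), and they were the higher ones in 39 of 40 pairs. None of the 10 was called in limma, where 1.62% of all genes tested were higher in vegetal hemispheres. An unadjusted p under 0.05 was found for 5 members and, in either direction, for 1394 of all 12703 genes. With the number as a block 5 members rose in vegetal hemispheres, where 2.73% of all genes did. Among them were g05493 (limma adjusted p = 0.000641 with the block) and g03470 (0.01), and the others were g04475, g15694 and g07186. Animal hemispheres had a median log2 difference of -0.81 against whole embryos (range -0.99 to -0.38). Of the members 0 were called in limma, where 2.94% of all genes were called lower. An unadjusted p under 0.05 was found for 4 members and, in either direction, for 1566 of all 12703 genes. With the block 4 members fell in animal hemispheres (3.9% of all genes), namely g05493, g03470, g13713 and g07186, at limma adjusted p = 0.00101 to 0.021. Both comparisons share the whole embryos.

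At 8 cells whole embryos lay between the hemispheres in 28 of 40 cases and above both in 11, of which 9 were in number 2. Vegetal hemispheres differed from whole embryos by a median log2 of 0.37, with 0 of 10 called in limma and 0% of all genes called, with or without the block. The members with an unadjusted p under 0.05 numbered 0 without the block and 2 with it, where 198 and 438 of all 12703 genes had one. Animal hemispheres differed by a median log2 of -1.03. No member was called lower there in limma, where 0.0472% of all genes were. An unadjusted p under 0.05 was found for 9 members and, in either direction, for 272 of all 12703 genes. With the block 3 members were called lower in animal hemispheres, namely g03470, g07186 and g07506, where 0.0866% of all genes were. The 8-cell hemispheres here are those of the contrast that led to the scaffold, so these counts and their shares over all genes are not independent of that choice and nothing is read from them.

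Between the stages, no change of the models was called in whole embryos in the fit without the number as a block. The ND5 model had 1750, 677, 1203 and 2870 RPKM at 110 cells in numbers 2 to 5, against 3127, 3201, 943 and 1382 RPKM at 8 cells. Its libraries overlapped widely, 2 numbers were higher and 2 lower at 110 cells, and the log2 difference was -0.42, with a 95% interval of -1.34 to 0.51. Member g03470 had 1790, 859, 992 and 900 RPKM at 110 cells, against 1532, 923, 710 and 690 RPKM at 8 cells. Its groups overlapped as well, with number 2 the highest at both stages. Member g05493 had 269, 118, 124 and 119 RPKM at 110 cells, against 187, 74.1, 80.2 and 79.5 RPKM at 8 cells. Its groups overlapped through number 2 at 8 cells, and the 110-cell library was the higher one in 4 of 4 numbers. Of the 10 members 0 were called in limma, where 24.4% of all genes tested were called in either direction. An unadjusted p under 0.05 was found for 0 members and for 4407 of all 12703 genes. The log2 differences reached from -0.42 in g01698 to 0.60 in g05493, around a median of 0.18, and the median of all genes tested was 0.04.

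In vegetal hemispheres the levels at 110 cells were above those at 8 cells on average, with calls that depended on the pairing by number. The median log2 difference was 0.58, against 0.00 for all genes tested, and the difference was positive in 10 of 10 members. In limma 0 members were called, where 22.6% of all genes were called in either direction. An unadjusted p under 0.05 was found for 1 member and for 4203 of all 12703 genes. With the number as a block 5 members rose at 110 cells, where 16.6% of all genes did. They were g05493 (log2 0.95, limma adjusted p = 4.21e-05 with the block and 0.136 without it), g03470 (0.57, adjusted p = 0.0105 and 0.185), g15694, g13713 and g07186. Member g05493 had 665, 218, 234 and 181 RPKM in vegetal hemispheres at 110 cells, against 228, 131, 120 and 120 RPKM at 8 cells. Each number was higher at 110 cells, but the groups overlapped because number 2 at 8 cells reached 228 RPKM. The ND5 model had the smallest log2 difference of the 10, at 0.03.

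In animal hemispheres the median log2 difference of 110 over 8 cells was 0.39, and 9 of 10 members were positive. In limma 0 were called, where 13% of all genes were called in either direction. An unadjusted p under 0.05 was found for 1 member and for 3018 of all 12703 genes. With the number as a block 3 members rose at 110 cells, where 11.4% of all genes did: g03470 (log2 0.52, limma adjusted p = 0.0272), g05493 (0.45, adjusted p = 0.0342) and g07506 (0.73, adjusted p = 0.0493). Member g07506 had 107, 144, 99.1 and 59.4 RPKM in animal hemispheres at 110 cells, against 52.9, 75.5, 78.3 and 37.7 RPKM at 8 cells. Every number was higher at 110 cells, and the groups overlapped. The stage comparisons of both hemispheres use the 8-cell libraries that led to the scaffold, so their calls are not independent of that choice. Whether the stages differ more in hemispheres than in whole embryos was not tested.

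The number of a library went with the level of these models. Library levels were taken as the mean log2(RPKM + 1) of the 10 members, and number 2 stood above the mean of its own group in 6 of 6 groups, by 0.49 on average. Number 3 was above in 3 groups, number 4 in 1 and number 5 in 1. Per model, the deviation of number 2 averaged over the 6 groups was positive for 10 of 10 models, against 3, 3 and 1 models for numbers 3, 4 and 5. Number 2 was above in 3 of 6 groups for the ND5 model and in 4 of 6 for g07506, g13713 and g12124. The models share the same libraries, so these counts are not independent, and how many of all genes stand like this was not tested. Member g05493 deviated most, at 0.99 above its group means in number 2, and was above in 6 of 6 groups. In animal hemispheres it had 156, 66.7, 84.0 and 52.8 RPKM at 110 cells, against 153, 44.1, 39.2 and 49.7 RPKM at 8 cells, so number 2 was the highest at both stages.

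Members differed in how they stood in the other numbers. In number 4, where its deviation was highest, g13713 stood 0.44 above its group means and was above in 6 of 6 groups, and g07186 stood at -0.69 and was above in 0 of 6. In number 3, g07186 was above in 6 of 6 groups, by 0.30, as it was in number 2, by 0.56. The ND5 model was above in 5 of 6 groups in number 5, by 0.36, and stood at 0.08 in number 2. The share of the spread within groups that went with the number was 60.2% at the median member, with 21.3% in g01698 and 91.5% in g05493, and 42% at the median of all genes tested. The share of g05493 was higher than in 98.6% of all genes tested, and its SD within groups was 0.69 on the log2 scale before and 0.22 after the number was taken into account.

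**Figure D5:**
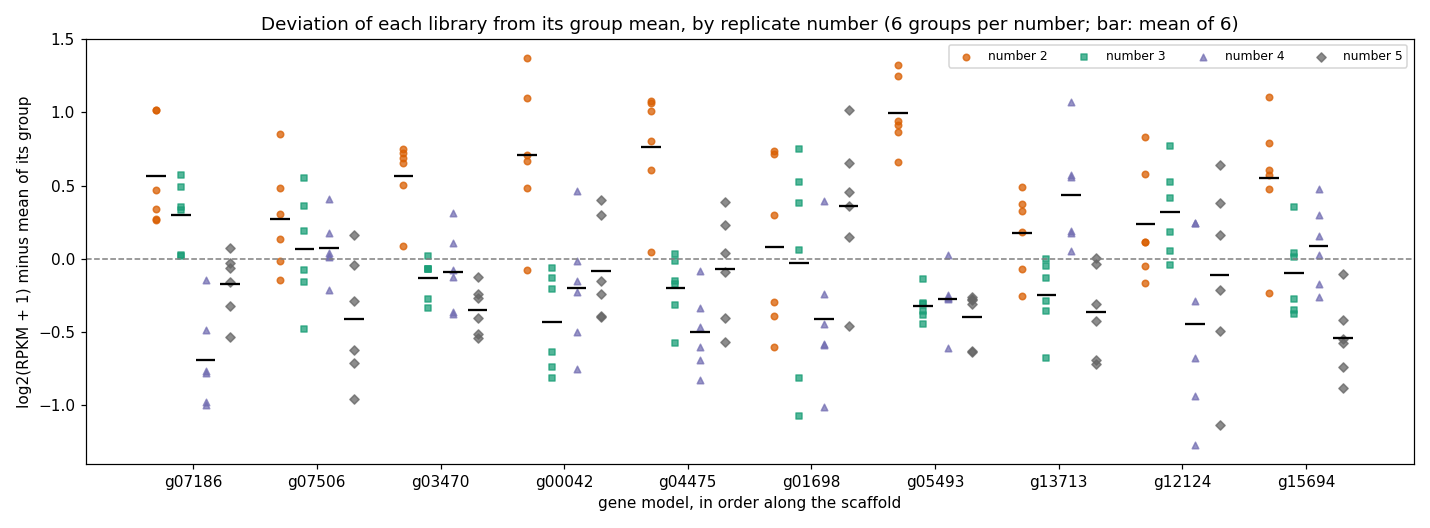
Deviation of log2(RPKM + 1) from the mean of its group for each S964 model, with 6 points per number, 1 for each group, point shapes for the numbers 2 to 5 and a bar for the mean of 6; the dashed line marks the group mean. The bar of number 2 is above 0 for all 10 models and reaches 0.99 in g05493, while number 4 is highest in g13713 and lowest in g07186.

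The members spread more within groups than the median transcript of a high level. Their median SD within groups was 0.64 on the log2 scale, against 0.37 for all genes tested and 0.24 for the 3065 genes with a mean of 50 RPKM or more. When the log2 values were split into a level per model, a level per library and a remainder, the SD was 2.06 between models, 0.74 between libraries and 0.44 in the remainder. Member g03470 followed the common library level most closely, with a remainder SD of 0.18. The ND5 model had the largest remainder, at 0.62, and g12124 came next at 0.54. For g12124 the few reads add counting error, whose part was not tested.

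The transcripts most like the S964 models over the 24 libraries were looked for off the scaffold, and how many share the pattern was not tested. Likeness was measured as the root mean square difference between log2 values centred over the 24 libraries, for the 9453 models off the scaffold with a mean of 5 RPKM or more. The 3 most alike were Harore.CG.MTP2014.S138.g03243 at 0.39, Harore.CG.MTP2014.S126.g01852 at 0.45 and Harore.CG.MTP2014.S126.g14611 at 0.47. At 110 cells g03243 averaged 25.2 ± 3.54 RPKM in vegetal hemispheres and 7.70 ± 1.56 RPKM in animal ones (SD, n = 4 each), and g01852 averaged 29.8 ± 2.88 RPKM in vegetal and 8.50 ± 1.26 RPKM in animal ones. Both notes cite the same best match, KH.C9.36, which the files do not explain. At the same stage g14611 averaged 544 ± 32.8 RPKM in vegetal hemispheres and 153 ± 51.0 RPKM in animal ones. It has no match and lies inside the span of g01852 on the opposite strand. Where segments of this pair overlap, reads cannot be told apart in libraries without strand information, and whether they overlap was not tested. Set against the other 9 members in the same way, g03470, g04475 and g15694 had no model off the scaffold closer to the 9 than themselves. Members g07186, g07506 and g00042 had 1 such model, g13713 had 2, g05493 had 3, g12124 had 30 and g01698 had 389.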

How the data were processed

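RNA sequencing libraries of hemispheres and whole embryos were made without strand information with an Illumina TruSeq kit from Trizol-extracted total RNA, per the labels' protocols, and HISAT2 was used, per the submitters' processing notes. The build of the genome, the counting program and the handling of multiply mapped reads were not given in the sources used here. RPKM values for 16078 gene models were deposited by the authors, with an annotation of 16082. The products of RPKM and coding length add up to 1.01 to 1.03 M in a library, which places the values relative to reads in genes. Inferred read numbers are approximate, and count models were left out for that reason.

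The 10 members and the lists were chosen with earlier results of these data known. The named models are those of S964, any other model whose note names a mitochondrial gene, and the 3 models off the scaffold most like the members. Levels are RPKM as deposited, given as mean ± SD. For tests, log2(RPKM + 1) was fitted in R 4.3.3 with limma 3.58.1, over the 12703 genes that reached 1 RPKM in 4 or more libraries. All 24 libraries entered 1 fit with 6 groups and a trend in the prior variance. Two-sided p-values were adjusted over all genes tested (Benjamini-Hochberg), with a threshold of 0.05. Differences on this scale understate the change of low genes. The fit was also run on simulated data with independent noise and no effect of the number. That run therefore cannot show how effects shared by same-numbered libraries bear on the p-values. Alternatives were pseudocounts of 0.1 and 5, no filter and a filter of 5 RPKM, 3 other scalings, a fit of only the groups compared, the number as a block and leaving out libraries.

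The numbers come from the labels. Deviations of same-numbered libraries from their group means correlated across genes at 0.126 or more in each comparison except that of the stages in whole embryos, and pairing by number was accepted outside that exception. The fit with the number as a block is given where it changes a call. It takes a single effect per number over all 24 libraries, so each of its p-values assumes that effect in whole embryos of both stages as well. No sequence of the members was used here.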

Additional observations from a re-analysis of the deposited data

Results flagged for a closer look

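In 10 of the 66 groups of 4 libraries examined, 1 library stood far from the other 3. Its gap, over the group's range, was above Dixon's 95% critical value. Chance passes this value about 1 time in 20 for a single group of normally distributed values. The limit was applied to RPKM and shares without a log scale, and whether these are normally distributed was not tested. The 66 groups are the 10 models and their summed share in the same 6 groups of libraries, so they are not independent. Whether 10 is more than chance gives was therefore not tested. Each of the 10 was a library of number 2. Member g05493 was set apart in 5 groups. It had 665 RPKM in the vegetal 110-cell library of number 2 against 181 to 234 RPKM in the other 3 libraries, 269 against 118 to 124 RPKM in whole embryos at 110 cells, 228 against 119.6 to 131 RPKM in vegetal hemispheres at 8 cells, 153 against 39.2 to 49.7 RPKM in animal hemispheres at 8 cells and 187 against 74.1 to 80.2 RPKM in whole embryos at 8 cells.

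Member g00042 had 734 RPKM in the vegetal 110-cell library of number 2 against 161 to 255 RPKM in the others, and 334 RPKM in the whole embryo library of that stage and number against 99.5 to 133 RPKM. Member g04475 had 335 RPKM in the vegetal 110-cell library against 106 to 141 RPKM, and g03470 had 1790 RPKM in the whole embryo library at 110 cells against 859 to 992 RPKM. The share of reads on the 10 models was 0.124% in the animal 8-cell library of number 2, against 0.1003% to 0.104% in the others.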

How the results depend on the processing

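For vegetal over animal hemispheres at 110 cells, 4 to 9 of the 10 members were called when libraries were left out, and 7 when only the groups compared were fitted. Over all genes, 501 of 12349 (without number 5) to 663 of 12632 (without the vegetal 110-cell library of number 4) were called higher with libraries left out. With only the groups compared, 482 of 11838 were. At 8 cells the count of 2 became 1 with no filter, 1 with quantile normalization, 7 with the number as a block and 0 to 2 with libraries left out. Over all genes, 14 of 15553 were called higher with no filter, 15 of 12703 with quantile normalization and 33 of 12703 with the block. This contrast led to the scaffold, so nothing is read from these counts. Counts of 0 became, with the block, 1 for the stages in whole embryos, 5 in vegetal and 3 in animal hemispheres, 5 for vegetal over whole and 4 for animal over whole at 110 cells and 3 for animal over whole at 8 cells, and 0 to 1 in each of these with libraries left out. In whole embryos between stages the same-number correlations were 0.081 to 0.416. The lowest was under the limit of 0.1 set for pairing, so the block was not relied on there. The 1 member called with the block was g05493 (limma adjusted p = 0.00342), where 2464 of 12703 genes were called higher. The log2 difference of the ND5 model there, -0.42, turned to 0.19 without number 3, and was -0.91 to 0.19 with libraries left out. The change of the regional difference and vegetal over whole at 8 cells stayed at 0 members in every alternative, and the block changed no other call beyond those given.

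Over all genes, the 1163 calls for vegetal over animal at 110 cells became 670 with a filter of 5 RPKM and 1824 with the block, and the 15 at 8 cells 7 to 17 with libraries left out and 39 with the block. The 332 calls for vegetal over whole at 110 cells became 90 with only the groups compared and 602 with the block, and the 502 for animal over whole 290 and 828. The 3104 for the stages in whole embryos became 1989 at the lowest with libraries left out, the 2866 in vegetal hemispheres 1690, with 4383 with the block, and the 1656 in animal hemispheres 912, with 2836 with the block. The 651 for the change of the regional difference became 394 with a filter of 5 RPKM, and the 6 for animal over whole at 8 cells 12 with the block. The cause of these differences was not tested. Depth limited g12124 most, at about 3.9 reads in its lowest library.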

Other observations

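A pair of neighbouring models did not keep the same ratio in all numbers. Members g05493 and g13713 lie 30 bp apart and have similar mean levels, and this pair was chosen after its values were seen. The ratio of g05493 over g13713 was 1.296 to 2.996 in the 6 libraries of number 2, 0.668 to 1.56 in number 3, 0.571 to 0.820 in number 4 and 0.872 to 1.33 in number 5. In each of the 6 groups the ratio of number 2 was above that of number 4, and the ranges of these numbers did not overlap. Over the 24 libraries the SD of the log2 ratio was 0.65 for this pair, and 0.29 to 0.97 over all neighbours. The steadiest neighbours were g00042 and g04475, 26 bp apart, with a ratio of 1.14 to 2.71.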
